A study of Homo sapiens with 6 samples.

Results

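The 10 genes described here move glucose into the cell, break it down to pyruvate and pass lactate out again. They are SLC2A1, HK1, HK2, PFKP, PFKL, ALDOA, PKM, LDHA, LDHB and SLC16A3, chosen by name, and all 10 were among the 11359 genes of the deposited table, through 48 of its 31009 transcripts. They were measured by RNA sequencing in CAL-62, an established human cell line from an anaplastic thyroid carcinoma, grown in serum-containing medium. The vector group held 3 cultures carrying the vector, whose content is not described, and the FOXK2 overexpression group (oeFOXK2 in the labels) held 3 cultures overexpressing the forkhead transcription factor FOXK2. No drug was named for either group, and the promoter that drives FOXK2, or whether a clone or a pool of cells was used, is not given here. The design text calls the cultures biological replicates and does not say how they were kept apart. The p-values therefore cover the spread among these 6 libraries, and that spread may be technical.

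Glucose enters through the transporter GLUT1, is trapped by hexokinase, committed by phosphofructokinase, split by aldolase and turned to pyruvate by pyruvate kinase. Lactate dehydrogenase interconverts pyruvate and lactate, and monocarboxylate transporters carry lactate across the membrane. Many carcinoma cells convert much of their glucose to lactate even with oxygen present, a habit called aerobic glycolysis, and in mouse cells FOXK1 and FOXK2 have been described as activators of it. Each step has several forms encoded by different genes, which differ in tissue distribution and regulation.

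FOXK2 stood at 16.3, 12.5 and 18.8 FPKM (fragments per kilobase of transcript, scaled to library size) in vector replicates 1, 2 and 3, and at 30.8, 36.2 and 30.1 FPKM in FOXK2 replicates 1, 2 and 3. The groups did not overlap (log2 change 1.00 with SE 0.17, adjusted p = 0.00525 in limma). The paralog FOXK1 lay between 5.28 and 6.07 FPKM in vector libraries and between 4.87 and 5.74 FPKM in FOXK2 libraries. Summed FPKM ran from 335151.3 to 395781.8 per library, and the number of reads behind them is unknown. Of 7 thyroid follicular markers 2 were listed, with PAX8 at 91.2 to 155 FPKM in vector and 82.6 to 114 FPKM in FOXK2 libraries. TG and TSHR were not among the listed transcripts. None of 5 endothelial markers was listed, and of 5 leukocyte markers the 2 listed summed to 13.9 to 21.0 FPKM in vector and 11.5 to 14.6 FPKM in FOXK2 libraries. The 2 listed of 6 fibroblast markers, COL1A1 and COL1A2, summed to 30.3 to 39.6 FPKM in vector and 20.1 to 21.6 FPKM in FOXK2 libraries. Both collagen genes were called lower as deposited. After a correction for GC content and length, described further on, COL1A2 was still called (log2 change -1.12, adjusted p = 0.00142 in limma). COL1A1 was not (-0.29, adjusted p = 0.105). Of 5 epithelial markers 4 were listed and 1 fell, KRT19, from between 613 and 634 FPKM to between 222 and 289 FPKM (log2 change -1.31, adjusted p = 0.000642 in limma). KRT19 was also called after this correction (log2 change -0.72, adjusted p = 0.000723 in limma). KRT8, KRT18 and EPCAM were not called as deposited. With the correction KRT18 (0.65, adjusted p = 0.00278) and KRT8 (0.48, adjusted p = 0.00934) were called higher, and EPCAM was not called. None of 3 mesenchymal markers was called as deposited. With the correction VIM was called higher (0.36, adjusted p = 0.00799 in limma) and FN1 lower (-0.45, adjusted p = 0.0305), and CDH2 was not called. The part of these markers in the results below was not tested.

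With FOXK2 overexpression the hexokinase 2 gene HK2 rose, the liver-type phosphofructokinase gene PFKL and the lactate transporter gene SLC16A3 fell, and the other 7 members did not pass the test. The test was limma on log2(FPKM + 1) across the 10305 genes whose mean reached 1 FPKM, and a call needed an adjusted p under 0.05. All 10 members passed that minimum. Across all genes 36.3% were called, 17.6% higher and 18.7% lower, so 3 calls among 10 members are near the background. Splitting the calls of all genes by direction depended on scaling, with 48.4% higher as deposited and 59.1% higher when each library was scaled to the same sum, which shifted the median of all genes to 0.13 on the log2 scale. The members' median log2 change was -0.19, against 0.01 for all genes tested. After the GC and length correction these medians were -0.09 and 0.01. Vector and FOXK2 ranges were separate for 4 of 10 members, against 52% of all genes. HK2 and LDHB were separate and higher with FOXK2 (25.6% of all genes), and PFKL and SLC16A3 separate and lower (26.4%). In bulk samples fewer cells of a type and less RNA per cell cannot be told apart.

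**Figure D1:**
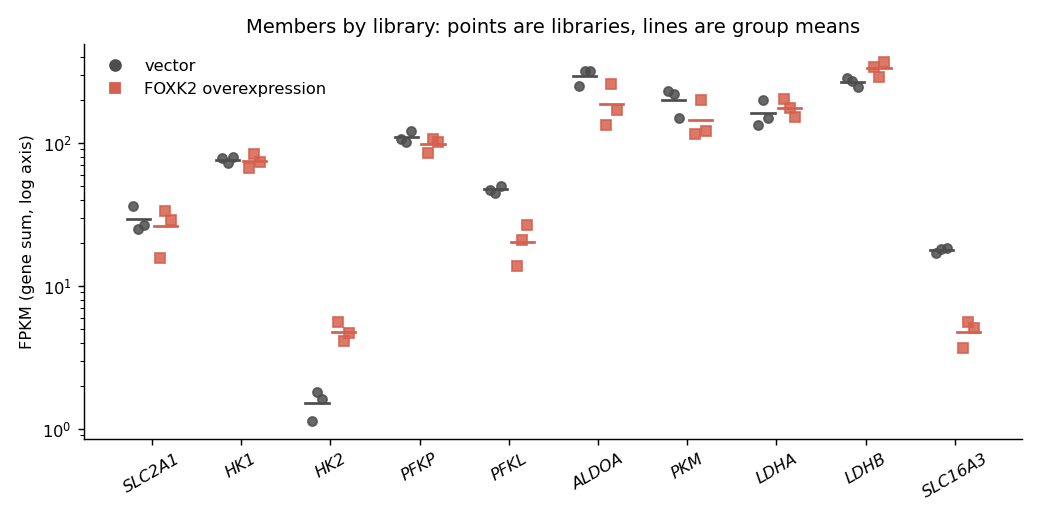
FPKM of each member on a log axis, with grey circles for the 3 vector libraries, red squares for the 3 FOXK2 overexpression libraries and lines for group means. HK2 sits higher in every FOXK2 library, PFKL and SLC16A3 sit lower in every FOXK2 library, and HK1 and LDHA overlap.

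The promoter windows of the 3 called genes are shown because these genes moved in opposite directions. Each window runs from 250 bases before to 50 bases after the RefSeq start nearest to the start of the gene's most abundant listed transcript (RefSeq sequences, build GRCh38.p14; the HK2 start lies 146 bases from that of its listed transcript; written 5′ to 3′ along the gene). Capitals mark ACGTG on either strand, a form of the core of the element bound by hypoxia-inducible factors. The form GCGTG was not searched or marked.
HK2, chr2:74833877-74834176, plus strand: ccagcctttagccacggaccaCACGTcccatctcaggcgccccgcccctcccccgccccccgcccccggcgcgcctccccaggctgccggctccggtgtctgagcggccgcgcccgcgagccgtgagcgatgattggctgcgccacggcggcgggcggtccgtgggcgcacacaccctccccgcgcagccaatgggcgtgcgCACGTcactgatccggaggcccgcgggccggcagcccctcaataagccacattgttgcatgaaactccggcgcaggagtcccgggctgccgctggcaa
PFKL, chr21:44299803-44300102, plus strand: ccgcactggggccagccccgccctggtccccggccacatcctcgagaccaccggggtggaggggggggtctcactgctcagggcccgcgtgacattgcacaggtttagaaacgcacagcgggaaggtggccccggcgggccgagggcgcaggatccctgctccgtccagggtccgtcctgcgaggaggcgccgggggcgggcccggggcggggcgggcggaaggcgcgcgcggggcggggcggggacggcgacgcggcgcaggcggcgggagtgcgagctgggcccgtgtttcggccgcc
SLC16A3, chr17:82228792-82229091, plus strand: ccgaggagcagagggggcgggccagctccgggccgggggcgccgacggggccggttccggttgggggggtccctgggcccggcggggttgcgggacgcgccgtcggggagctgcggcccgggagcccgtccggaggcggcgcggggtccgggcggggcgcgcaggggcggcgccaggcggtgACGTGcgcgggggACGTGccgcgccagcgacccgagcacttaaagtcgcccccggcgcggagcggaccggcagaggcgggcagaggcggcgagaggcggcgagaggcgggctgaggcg
The HK2 window held ACGTG on the minus strand at positions -229 and -48 from the start, and the SLC16A3 window held it on the plus strand at -68 and -55. Windows of 3 of the 10 members held it (ALDOA was the third, at -178), against 21.4% of all 35116 RefSeq windows of the same length. The rising HK2 and the falling SLC16A3 both held ACGTG and the falling PFKL did not. The PFKL window does hold the unmarked form GCGTG, so these letters do not set PFKL apart from the other called genes. The forkhead core GTAAACA, searched on both strands, was in none of the 10 members' windows and in 3.42% of all windows. CACGTG, the E-box, which contains ACGTG, was in none of the members' windows and in 7.26% of all windows. Several windows lie away from the start of the listed transcript, by 1468 bases for PKM, 450 for PFKP, 308 for SLC2A1 and 220 for HK1, and those of PKM, PFKP and SLC2A1 do not cover it. A match is a description of letters, and no match says only that those letters are not in these windows.

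At the uptake step, SLC2A1 encodes GLUT1, the basal glucose transporter of most cells. Its level was 36.0, 24.8 and 26.6 FPKM in vector replicates 1, 2 and 3, and 15.7, 33.6 and 28.7 FPKM in FOXK2 replicates 1, 2 and 3. FOXK2 replicate 1 was the lowest of the 6 libraries, and the other two FOXK2 libraries lay within the vector range. The group means were 29.1 ± 6.01 and 26.0 ± 9.23 FPKM (SD, n = 3), with no call (log2 change -0.21 with SE 0.28, adjusted p = 0.580 in limma). Leaving out FOXK2 replicate 1 turned the sign, to a log2 change of 0.11 (adjusted p = 0.699).

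Of 7 other glucose transporter genes 4 were listed and 3 tested, with 2 lower and none higher (median log2 change -1.17, against 0.01 over all genes tested). Over all genes 18.7% were called lower and 17.6% higher, and 3 genes are too few to set against these shares. After a correction for GC content and transcript length, described further on, the counts were the same and the median was -0.70. With that correction 14.4% of all genes were called lower. SLC2A6, which encodes GLUT6, fell from between 19.6 and 21.1 FPKM to between 7.04 and 9.73 FPKM (log2 change -1.17, adjusted p = 0.00186 in limma). SLC2A10, the GLUT10 gene, fell from between 4.05 and 5.60 FPKM to between 1.01 and 2.06 FPKM (log2 change -1.23, adjusted p = 0.00495 in limma). SLC2A8, the GLUT8 gene, showed no call (log2 change -0.01, adjusted p = 0.983 in limma).

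At the hexokinase step, HK1 is the form found in most tissues and HK2 the insulin- and growth-factor-responsive form that many tumours express. HK2 was listed at 1.14, 1.81 and 1.61 FPKM in vector replicates 1, 2 and 3, and at 5.60, 4.11 and 4.65 FPKM in FOXK2 replicates 1, 2 and 3. The lowest FOXK2 library was above the highest vector library. The rise was from 1.52 ± 0.344 to 4.79 ± 0.757 FPKM (SD, n = 3; log2 change 1.20 with SE 0.18, adjusted p = 0.00312 in limma), and the log2(FPKM + 1) scale understates it at this level.

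HK1 stood at 78.1, 72.2 and 79.0 FPKM in vector libraries and at 66.7, 83.9 and 74.1 FPKM in FOXK2 libraries. Its values overlapped and its log2 change was -0.03 (SE 0.12, adjusted p = 0.842 in limma). Most of it came from ENST00000359426, at 60.3 to 83.9 FPKM over the 6 libraries. The other listed HK1 transcript, ENST00000298649, was listed at 0 in vector replicates 1 and 3 and FOXK2 replicate 2 and reached 13.8 FPKM in FOXK2 replicate 3.

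The sum of both hexokinase genes was 78.0 ± 3.50 FPKM with the vector and 79.7 ± 7.92 FPKM with FOXK2 (SD, n = 3; exact permutation test, two-sided, p = 0.9). HK2 made up 1.44%, 2.44% and 2.00% of that sum in vector libraries and 7.75%, 4.67% and 5.91% in FOXK2 libraries. The share was higher in all 3 FOXK2 libraries, by 4.15 percentage points on average, and the exact permutation p of 0.1 (two-sided) is the smallest that 3 against 3 can give. HK1 was the main listed hexokinase transcript in every library. Such a share is taken within a library and does not move when a library is scaled by a factor.

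**Figure D2:**
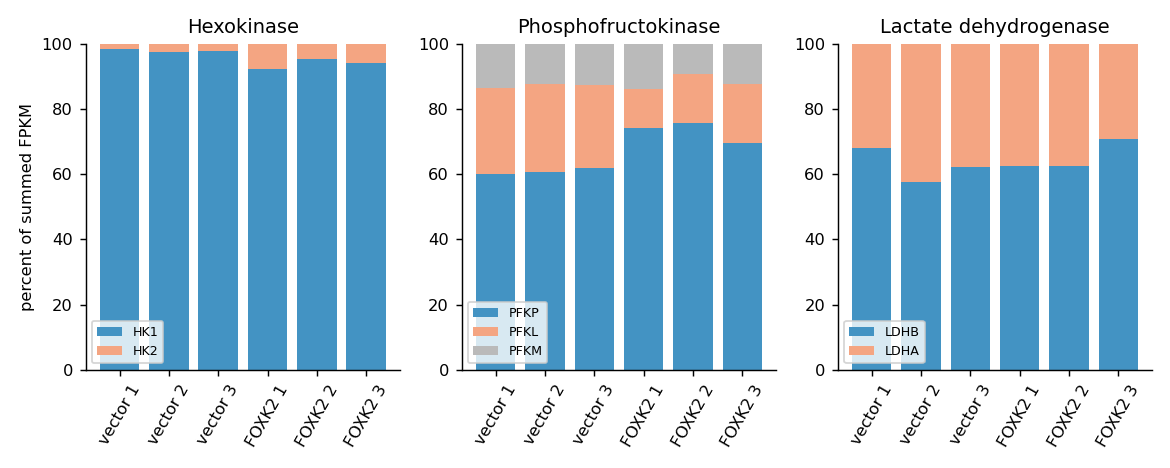
Each bar is 1 library and shows the percent of summed FPKM from each form of hexokinase, phosphofructokinase and lactate dehydrogenase. The HK2 share rises from a mean of 1.96% to 6.11%, the PFKP share from 60.9% to 73.1%, and the LDHB share overlaps between the groups.

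Phosphofructokinase, the main control point of glycolysis, has 3 subunits, the platelet type PFKP, the liver type PFKL and the muscle type PFKM. PFKL stood at 46.9, 44.5 and 50.3 FPKM in vector replicates 1, 2 and 3, and at 13.8, 20.8 and 26.5 FPKM in FOXK2 replicates 1, 2 and 3. Every FOXK2 library was below every vector library, and the FOXK2 libraries differed among themselves by more than the vector libraries did. The fall was from 47.2 ± 2.87 to 20.4 ± 6.38 FPKM (SD, n = 3; log2 change -1.22 with SE 0.22, adjusted p = 0.00642 in limma).

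PFKP, the most abundant of the 3, was at 107, 101 and 122 FPKM in vector libraries and at 85.5, 106 and 101 FPKM in FOXK2 libraries. The groups overlapped, with no call (log2 change -0.17 with SE 0.13, adjusted p = 0.329 in limma). PFKM, which is not among the 10, fell from between 20.6 and 24.8 FPKM to between 12.99 and 17.8 FPKM (log2 change -0.54, adjusted p = 0.0309 in limma).

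The 3 phosphofructokinase genes summed to 178, 166 and 197 FPKM in vector libraries and to 115, 140 and 145 FPKM in FOXK2 libraries. PFKP made up 60.02%, 60.8% and 61.8% of that sum in vector libraries and 74.1%, 75.8% and 69.5% in FOXK2 libraries. The groups did not overlap and differed by 12.2 percentage points (exact permutation test, two-sided, p = 0.1, the smallest possible). PFKL made up 26.3% ± 0.642 with the vector and 15.1% ± 3.15 with FOXK2, and PFKM 12.9% ± 0.646 and 11.8% ± 2.36 (SD, n = 3). Of 5 genes for the enzymes that set fructose 2,6-bisphosphate, the activator of phosphofructokinase, 3 were tested and none was called. PFKFB3, the inducible kinase, had a log2 change of -0.22 (adjusted p = 0.317 in limma), and TIGAR, a phosphatase that opposes it, of 0.13 (adjusted p = 0.496).

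ALDOA encodes aldolase A, which splits fructose 1,6-bisphosphate. Its sum over 13 listed transcripts was 249, 320 and 318 FPKM in vector libraries and 134, 259 and 171 FPKM in FOXK2 libraries. FOXK2 replicate 2 lay above vector replicate 1, so the groups overlapped. The means were 295 ± 40.5 and 188 ± 64.3 FPKM (SD, n = 3), just short of the threshold (log2 change -0.69 with SE 0.23, adjusted p = 0.0520 in limma). Without FOXK2 replicate 2 it was called (log2 change -0.95, adjusted p = 0.00628).

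Much of the spread of ALDOA among the FOXK2 libraries came from a pair of transcripts. Without the pair the SD was 13.3 FPKM among FOXK2 libraries and 34.7 FPKM among vector libraries. ENST00000569545 was at 34.7, 135 and 116 FPKM in vector libraries and at 9.98, 95.8 and 31.5 FPKM in FOXK2 libraries. ENST00000569798 was at 29.9, 63.4 and 23.5 FPKM and at 8.91, 22.2 and 5.85 FPKM. With both left out, an alternative chosen after seeing the data, ALDOA summed to 184, 121 and 179 FPKM in vector and 115, 141 and 134 FPKM in FOXK2 libraries (log2 change -0.29, adjusted p = 0.233 in limma). The most abundant of the remaining transcripts, ENST00000564546, stood at 76.6, 44.2 and 87.3 FPKM in vector libraries and at 58.0, 69.7 and 61.8 FPKM in FOXK2 libraries. None of the 12 ALDOA transcripts tested was called.

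PKM encodes pyruvate kinase, the enzyme that makes pyruvate, in an M1 and an M2 form that carry 1 of 2 alternative exons. The 2 exons are shown because they class the listed transcripts. They have 167 bases each on the minus strand of chromosome 15 (GENCODE 29, build GRCh38) and are identical at 105 positions, or 62.9%, and capitals mark the positions at which they differ.
PKM1-type exon, chr15:72203022-72203188: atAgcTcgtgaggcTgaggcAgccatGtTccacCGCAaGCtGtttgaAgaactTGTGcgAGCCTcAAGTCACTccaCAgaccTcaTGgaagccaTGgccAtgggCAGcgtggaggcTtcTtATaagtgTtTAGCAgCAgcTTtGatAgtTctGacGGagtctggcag
PKM2-type exon, chr15:72202454-72202620: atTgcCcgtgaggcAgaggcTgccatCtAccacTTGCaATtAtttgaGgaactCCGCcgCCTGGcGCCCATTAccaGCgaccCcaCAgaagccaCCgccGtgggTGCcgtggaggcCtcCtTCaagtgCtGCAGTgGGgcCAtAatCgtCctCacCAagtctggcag
Of 10 listed PKM transcripts 5 held the PKM1-type exon, 2 the PKM2-type exon and 3 neither. The PKM1-type transcripts summed to 207, 187 and 109 FPKM in vector libraries and to 87.3, 165 and 92.5 FPKM in FOXK2 libraries. The PKM2-type transcripts summed to 17.7, 24.2 and 31.4 FPKM and to 22.8, 28.3 and 23.3 FPKM. PKM1-type transcripts thus took 77.6% to 92.1% of the classified signal in vector and 79.3% to 85.3% in FOXK2 libraries, and the groups overlapped (difference -4.59 percentage points, exact permutation test, two-sided, p = 0.4). How the reads shared by these transcripts were divided is not given in the sources used here, so the shares are those of the authors' assignment.

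The PKM sum was 230.5, 218 and 149.9 FPKM in vector libraries and 115, 199.5 and 122 FPKM in FOXK2 libraries. The groups overlapped and the gene was not called (log2 change -0.47 with SE 0.25, adjusted p = 0.164 in limma). Without FOXK2 replicate 2 it was called (log2 change -0.72, adjusted p = 0.0242). A PKM1-type transcript, ENST00000568459, was at 116, 104 and 2.75 FPKM in vector libraries and at 49.4, 92.1 and 1.95 FPKM in FOXK2 libraries. It was low in replicate 3 of both groups, and without it vector replicate 3 had the highest PKM sum of the vector libraries. This sum, again chosen after seeing the data, was 115, 114 and 147 FPKM in vector and 65.6, 107 and 120 FPKM in FOXK2 libraries (log2 change -0.39, adjusted p = 0.208 in limma). ENST00000561609, the next most abundant, stood at 67.9 ± 11.0 and 47.5 ± 22.7 FPKM (adjusted p = 0.346 in limma).

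**Figure D3:**
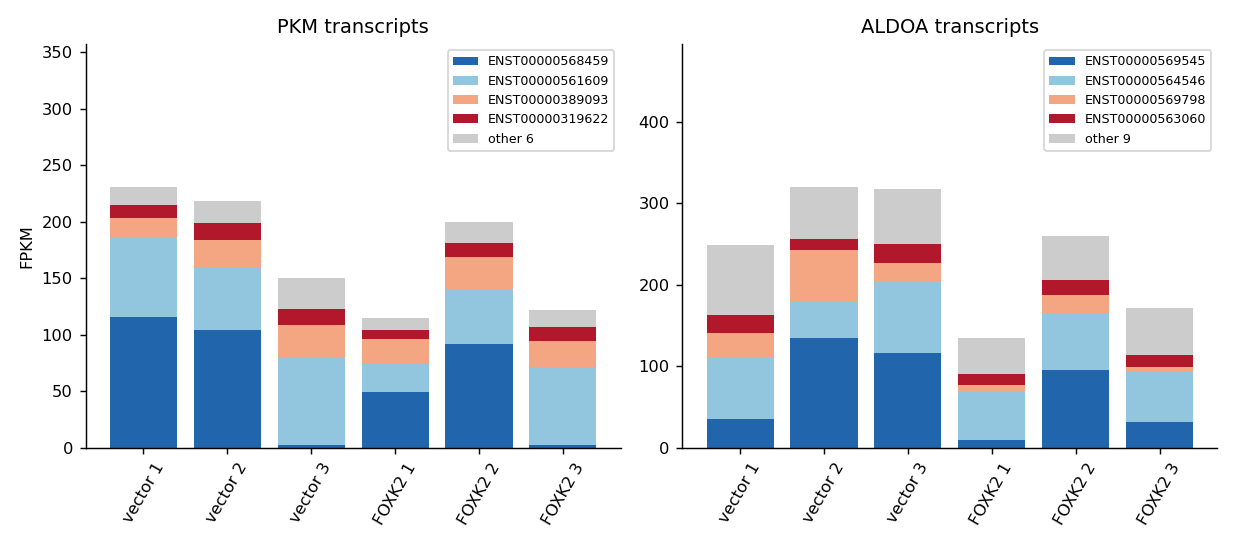
Stacked FPKM of the listed PKM transcripts (left) and ALDOA transcripts (right) in each library, with the 4 most abundant in colour and the rest in grey. ENST00000568459 is nearly missing from the bars of vector replicate 3 and FOXK2 replicate 3 of PKM, and ENST00000569545 runs from 9.98 to 135 FPKM in ALDOA.

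Among 17 other glycolytic enzyme genes, 11 were tested, of which 1 rose and 4 fell (median log2 change -0.47), where 17.6% of all genes rose and 18.7% fell. After the GC and length correction 2 rose and 2 fell, with a median of -0.11, so the excess of falls over rises was not seen there. BPGM, which makes 2,3-bisphosphoglycerate, rose from between 5.36 and 7.09 FPKM to between 10.5 and 12.9 FPKM (log2 change 0.87, adjusted p = 0.00705 in limma). PGK1, phosphoglycerate kinase, fell from between 117 and 145 FPKM to between 82.9 and 104 FPKM (log2 change -0.50, adjusted p = 0.0264 in limma). With the correction its fall was larger (-0.94, adjusted p = 0.0202). PFKM, given above, was still called lower (-0.49, adjusted p = 0.0403) and BPGM still higher (0.63, adjusted p = 0.0106). ENO3, the muscle enolase gene, fell from between 2.97 and 4.36 FPKM to between 1.23 and 2.32 FPKM (log2 change -0.85, adjusted p = 0.0182 in limma). The ENO3 call was lost with the correction (log2 change -0.35, adjusted p = 0.317). The 2 most abundant of the list were not called, ENO1 with a log2 change of -0.01 (adjusted p = 0.978 in limma) and GAPDH with -0.43 (adjusted p = 0.141). TPI1, named after its values were seen, lay close behind GAPDH. It fell from between 650 and 723 FPKM to between 419 and 577 FPKM (log2 change -0.47, adjusted p = 0.0301 in limma). With the correction TPI1 was not called (-0.04, adjusted p = 0.767). ALDOA, PKM, LDHA, LDHB and GAPDH have processed pseudogenes, and reads shared with these copies make their levels uncertain.

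LDHA encodes the lactate dehydrogenase subunit that predominates in muscle and in many tumours, and LDHB the subunit that predominates in heart. LDHB stood at 285, 270.2 and 247 FPKM in vector replicates 1, 2 and 3, and at 342, 290.4 and 368 FPKM in FOXK2 replicates 1, 2 and 3. Every FOXK2 library was above every vector library, yet the difference missed the threshold (267 ± 19.3 and 334 ± 39.6 FPKM, SD, n = 3; log2 change 0.31 with SE 0.12, adjusted p = 0.0831 in limma). It was called without FOXK2 replicate 2 (log2 change 0.41, adjusted p = 0.0232), with quantile normalization (0.51, adjusted p = 0.0331) and with libraries scaled to the same sum (0.44, adjusted p = 0.0397).

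LDHA stood at 134, 199 and 149 FPKM in vector libraries and at 204, 174 and 151 FPKM in FOXK2 libraries. Its groups overlapped (log2 change 0.14 with SE 0.18, adjusted p = 0.556 in limma). ENST00000379412 and ENST00000422447 were the main LDHA transcripts, and of the 9 tested none was called. The LDHB share of both genes was 68.0%, 57.5% and 62.3% in vector libraries and 62.7%, 62.5% and 70.9% in FOXK2 libraries (exact permutation test, two-sided, p = 0.5). LDHB therefore gave more than LDHA of the summed signal in every library of both groups. The LDHA and LDHB sum was 428 ± 37.6 FPKM with the vector and 510 ± 41.4 FPKM with FOXK2 (SD, n = 3; exact permutation test, two-sided, p = 0.2).

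At the export step, SLC16A3 encodes MCT4, a monocarboxylate transporter that exports lactate from strongly glycolytic cells and is induced by hypoxia. Its level was 17.0, 18.1 and 18.3 FPKM in vector replicates 1, 2 and 3, and 3.68, 5.59 and 5.09 FPKM in FOXK2 replicates 1, 2 and 3. The highest FOXK2 library was far below the lowest vector library. The fall, from 17.8 ± 0.663 to 4.79 ± 0.993 FPKM (SD, n = 3), was the largest change among the 10 members on the log2(FPKM + 1) scale (log2 change -1.71 with SE 0.17, adjusted p = 0.000714 in limma).

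Of 5 genes for other monocarboxylate transporters and their membrane chaperones, 4 were tested and 1 fell (median log2 change -0.24). With the GC and length correction 1 rose and 1 fell (median -0.27). Over all genes 18.7% fell as deposited, and 15.7% rose and 14.4% fell with the correction. SLC16A8, the MCT3 gene, fell from 3.92, 3.59 and 4.06 FPKM to 0.369, 0.712 and 0.517 FPKM (log2 change -1.67, adjusted p = 0.000642 in limma). SLC16A1, the MCT1 gene, stood at 18.4 to 31.1 FPKM in vector and 11.4 to 27.0 FPKM in FOXK2 libraries, with no call (log2 change -0.22, adjusted p = 0.632 in limma). BSG, which encodes basigin, the chaperone of MCT1 and MCT4, was at 242 to 303 and at 186 to 258 FPKM (log2 change -0.27, adjusted p = 0.192 in limma). With the correction the sign of BSG turned and it was called higher (log2 change 0.28, adjusted p = 0.0378).

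In vector cells the members ranked ALDOA, LDHB, PKM, LDHA, PFKP, HK1, PFKL, SLC2A1, SLC16A3 and HK2 from the highest mean FPKM to the lowest. The vector ranges of ALDOA and LDHB overlapped, as did those of PKM and LDHA, and no other neighbours in that order did. In FOXK2 cells LDHB stood first and SLC16A3 last, at a mean of 4.79 FPKM beside 4.79 FPKM for HK2. The 10 members summed to 1161 to 1270 FPKM in vector and 986 to 1177 FPKM in FOXK2 libraries (exact permutation test, two-sided, p = 0.2).

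Tested singly as transcripts, 42 of the 48 listed transcripts of the members had a mean of at least 1 FPKM, and 1 was higher and 2 were lower. Among all 21273 transcripts tested 7.39% were called, 3.03% higher and 4.36% lower. These 3 were ENST00000290573 of HK2 (adjusted p = 0.0279 in limma), ENST00000349048 of PFKL (adjusted p = 0.0391) and ENST00000582743 of SLC16A3 (adjusted p = 0.00975), each the only listed transcript of its gene. Across transcripts their calls were less stable than across genes, as given in the closing section.

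The members' changes lay along their GC content. The log2 change correlated with GC content at a Spearman coefficient of -0.915 over the 10 members and of -0.587 over all 10305 genes, a description over genes that share the same 6 libraries. PFKL at 63.5% GC and SLC16A3 at 65.0% lie in the highest of 10 equal groups of genes by GC content, where 44.1% of 1031 genes fell and 2.04% rose, with a median log2 change of -0.53. LDHA and LDHB, at 44.2% and 44.9%, lie in a group with a median of 0.24. HK2, at 51.2%, lies in a group with a median of -0.05, where 12.7% of genes rose.

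After each library's trend on GC content and transcript length was removed, the same 3 members were called. The log2 change was then 1.12 for HK2 (adjusted p = 0.00271 in limma), -0.79 for PFKL (adjusted p = 0.0198) and -1.17 for SLC16A3 (adjusted p = 0.000486). ALDOA moved to -0.14 (adjusted p = 0.523) and PKM to -0.15 (adjusted p = 0.647). PFKP, HK1 and LDHA, without a call in either fit, changed sign. With the correction 30.1% of all genes were called, 15.7% higher and 14.4% lower. What GC content contributes to these changes was not tested further.

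**Figure D4:**
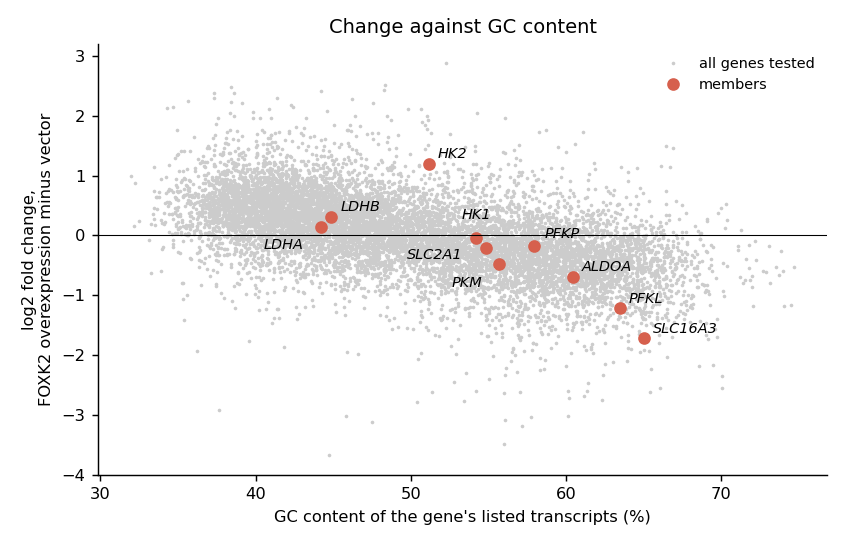
Log2 fold change of FOXK2 overexpression minus vector against the GC content of each gene's listed transcripts, with all tested genes in grey (12 genes lie outside the plotted range) and the 10 members in red. The members descend from LDHA and LDHB at 44.2% and 44.9% GC to SLC16A3 at 65.0%, and HK2 lies well above the trend.

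**Figure D5:**
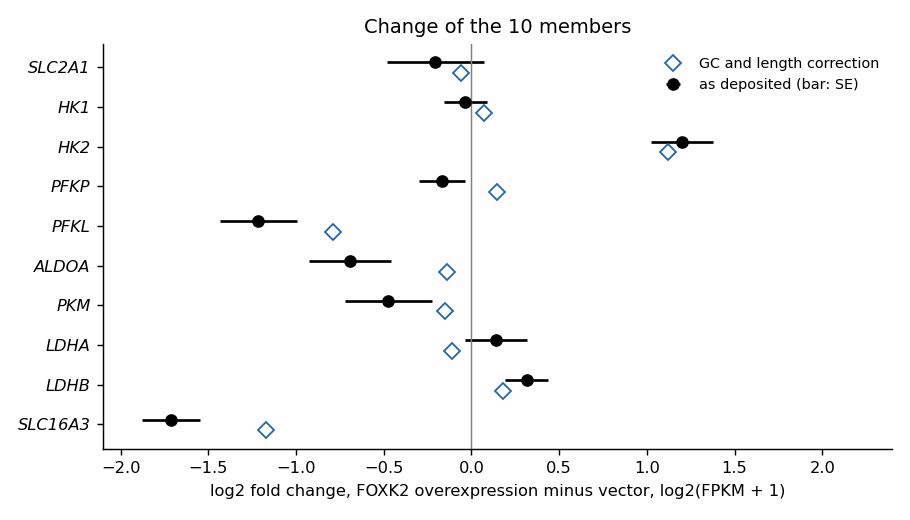
Log2 fold change of the 10 members with its SE as deposited (black) and after the GC and length correction (open blue diamonds). HK2 stays near 1.2 and 1.12, PFKL and SLC16A3 move toward 0 but stay negative, and ALDOA and PKM come close to 0.

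Beyond the pathway's end at pyruvate, the genes of pyruvate entry into mitochondria and of the pyruvate dehydrogenase complex were mixed. Of 13 tested, 2 rose and 2 fell (median log2 change 0.10), and 1 rose and 2 fell after the correction (median -0.14). Over all genes 17.6% rose and 18.7% fell as deposited, and 15.7% rose and 14.4% fell after the correction. DLAT, the acetyltransferase subunit, rose from between 5.72 and 6.37 FPKM to between 10.8 and 15.5 FPKM (log2 change 0.99, adjusted p = 0.00464 in limma). PDHB, a subunit of the decarboxylase, fell from between 25.7 and 28.8 FPKM to between 16.3 and 20.0 FPKM (log2 change -0.57, adjusted p = 0.0146 in limma). PDK2, a kinase that inactivates the complex, fell from between 5.77 and 8.81 FPKM to between 2.05 and 4.31 FPKM (log2 change -1.01, adjusted p = 0.0184 in limma). PDHA1 had a log2 change of 0.10 and the pyruvate carrier gene MPC1 of 0.20, without calls.

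Of 10 genes for regulators of glycolysis, 9 were tested and 1 fell (median log2 change -0.05), and 2 fell after the correction (median 0.02). Over all genes 18.7% fell as deposited and 14.4% after the correction. SIRT6, a histone deacetylase that in mice represses glycolytic genes, fell from between 9.85 and 13.6 FPKM to between 4.07 and 6.81 FPKM (log2 change -1.01, adjusted p = 0.00996 in limma). With the GC and length correction SIRT6 moved to -0.40 and stayed just under the threshold (adjusted p = 0.0488). HIF1A, which encodes a hypoxia-inducible factor subunit, stood at 19.8, 23.7 and 15.2 FPKM in vector and 31.7, 25.7 and 27.0 FPKM in FOXK2 libraries. The groups did not overlap, but the difference missed the threshold (log2 change 0.52, adjusted p = 0.0563 in limma). After the GC and length correction the log2 change was 0.02. A link between HIF1A and any member was not tested. MAX, the partner of several helix-loop-helix factors, was not called (log2 change -0.29, adjusted p = 0.332 in limma).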

How the data were processed

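RNA was sequenced from 3 vector and 3 FOXK2 overexpression cultures with a stranded kit, per the labels' protocols. The authors used cutadapt, HISAT2 2.1.0 and StringTie on hg19, per the submitters' processing notes; settings and use of strand were not stated. The deposited values were taken as FPKM because StringTie is named, though the header gives no unit; equal-sum scaling was tried for this reason. The table reaches down to a mean of 0.5 FPKM in the higher group, and transcripts below that are not analysed here. With depth unknown, values carry no counting error. GENCODE 29, on another build, gave names, GC content and length for 30893 transcripts; 116 (0.211% of the signal) were unmatched. Listed transcripts were summed per gene and tested on log2(FPKM + 1) with limma 3.58.1 in R 4.3.3 (group term, intensity trend, two-sided, Benjamini-Hochberg over features with a mean of at least 1 FPKM), which was tested on simulated data. This scale understates changes of low genes. Shares were compared by exact permutation. The GC and length correction removed a spline trend per library. Other alternatives changed the pseudocount, filter, scaling, intensity trend, replicate block, transcript choice or left out a library. The members and gene lists were chosen with earlier results of these data known. All members are named. Of each other list, up to 3 called genes of smallest p and the 2 of highest mean FPKM are named, with FOXK2, FOXK1 and PFKM. A few more were named after their values were seen, as stated where they appear.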

Additional observations from a re-analysis of the deposited data

How the results depend on the processing

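HK2 (17 alternatives), PFKL and SLC16A3 (18 each) were called under every alternative, with log2 fold changes from 1.09 to 1.61, from -1.42 to -0.79 and from -1.89 to -1.17. HK2 had no value with the minimum of 5 FPKM. Of 181 member values under alternatives, 174 kept their side of the threshold. ALDOA became called with the minimum of 5 FPKM (-0.69, adjusted p = 0.0480), with the replicate block (-0.69, adjusted p = 0.0267) and without FOXK2 replicate 2, and its values ran from -0.95 to -0.48 with libraries left out. PKM ran from -0.72 to -0.33 and LDHB from 0.24 to 0.41, both called only without FOXK2 replicate 2 among the libraries left out. LDHB was also called with quantile normalization (0.51) and equal-sum scaling (0.44). It was not called with the replicate block (0.31, adjusted p = 0.147 in limma) or with the GC and length correction (0.18, adjusted p = 0.143). The cause was not tested. The count of genes, 3741, was 2143 with the most abundant transcript, 2982 with the replicate block, 2147 with the block and the GC and length correction, and 1944 to 4767 with libraries left out. The count of transcripts, 1572, was 175 to 2162 with libraries left out, 22 with the replicate block and 20 with the block and the correction. In these, the transcripts of HK2, PFKL and SLC16A3 missed the threshold under the block (adjusted p = 0.128, 0.123 and 0.0951). With 1 library left out the HK2 transcript missed it in 5 of 6 cases, the PFKL transcript in 6 of 6 and the SLC16A3 transcript in 1 of 6 (without vector replicate 2, adjusted p = 0.0541). The PFKL transcript also missed it with the GC and length correction (adjusted p = 0.0691) and with no intensity trend (adjusted p = 0.0534). Whether same-numbered libraries were paired is not stated. Deviations of same-numbered libraries correlated at 0.13, -0.17 and -0.06 across genes, and those of differently numbered libraries at -0.28 to 0.30. With so few libraries these values cannot decide it. The block changed no other call of a member. The shares kept their direction for HK2 (3.33 to 4.87 percentage points with libraries left out) and PFKP (10.9 to 14.1), while LDHB ran from -0.00408 to 5.46 points and was -0.00408 without FOXK2 replicate 3. Unknown depth limits what can be said of transcripts near 1 FPKM.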

Other observations

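The branches that leave glycolysis also moved in both directions. Of 8 pentose phosphate genes, 2 rose and 3 fell (median log2 change -0.43, against 0.01 for all genes tested, of which 36.3% were called; 2 rose and 2 fell, with a median of -0.03, after the GC and length correction). TALDO1, the transaldolase of the non-oxidative branch, was at 199, 210.2 and 233 FPKM in vector and 110.4, 142 and 127 FPKM in FOXK2 libraries (log2 change -0.76, adjusted p = 0.00510 in limma). RPE, the ribulose phosphate epimerase of the same branch, rose from between 5.75 and 7.54 FPKM to between 10.6 and 24.2 FPKM (log2 change 1.26, adjusted p = 0.0136 in limma). H6PD, which works in the endoplasmic reticulum, fell (log2 change -0.85, adjusted p = 0.00668 in limma). TKT, transketolase, was not called (log2 change -0.45, adjusted p = 0.0918 in limma).

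Of 11 tested genes of glycogen and gluconeogenesis, 3 rose and 3 fell (median log2 change 0.34), where 17.6% of all genes rose and 18.7% fell. After the GC and length correction 2 rose and 3 fell (median 0.05). The risers, named after their values were seen, were GPD2, the mitochondrial glycerol phosphate dehydrogenase (log2 change 0.94, adjusted p = 0.0136 in limma), GBE1, the glycogen branching enzyme (0.69, adjusted p = 0.0139), and UGP2, which makes UDP-glucose (0.60, adjusted p = 0.0169). With the correction UGP2 was no longer called (0.26, adjusted p = 0.0659). The 3 genes of smallest p fell. GYS1, glycogen synthase, went from between 32.3 and 35.2 FPKM to between 12.5 and 19.6 FPKM (log2 change -1.07, adjusted p = 0.00423 in limma). PYGB, the brain-type glycogen phosphorylase, went from between 74.7 and 78.4 FPKM to between 33.9 and 51.9 FPKM (log2 change -0.85, adjusted p = 0.00764 in limma). PGM1, the phosphoglucomutase that links glucose 6-phosphate to glycogen, went from between 45.4 and 51.8 FPKM to between 23.2 and 29.96 FPKM (log2 change -0.84, adjusted p = 0.00418 in limma). These 3 were also called after the GC and length correction, with log2 changes of -0.78, -0.59 and -0.85.

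A value to look at again is the PKM assignment. In a carcinoma line, the transcripts with the PKM1-type exon held 77.6% or more of the classified signal in every library, while of the 2 PKM2-type transcripts ENST00000389093 stood at 17.5 to 28.3 FPKM and ENST00000335181 at 0.173 to 3.11 FPKM. Reads over the 2 exons were not analysed here, so the deposited values do not show how many reads covered either exon.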
